A study of Mus musculus with 15 samples.

Results

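The glutamate receptor and Homer1 loci are 5 genomic windows around named genes, which were picked with earlier results of these data known; within a window every listed region counted, whatever its values: Gria1 (chr11:56780000-57190000), Gria2 (chr3:80440000-80660000), Grin1 (chr2:25100000-25220000), Grin2b (chr6:135600000-136200000) and Homer1 (chr13:94020000-94230000), all in mouse build mm9. They held 124 of the 82590 listed regions and intervals of the series: 85 of 49712 H3K27ac regions (acetylation of histone H3 on its lysine 27, found at promoters and enhancers in use), 14 of 11748 regions of 5-hydroxymethylcytosine (5hmC, the base that Tet enzymes make by oxidising 5-methylcytosine), 16 of 10575 intervals named as cocaine-specific 5hmC enhancers and 9 of 10555 named as saline-specific ones. By locus the totals were 37 for Gria1, 8 for Gria2, 24 for Grin1, 46 for Grin2b and 9 for Homer1. All libraries used here were labelled as nucleus accumbens, a part of the ventral striatum, from C57BL/6 mice. Cocaine mice had received 20 mg/kg intraperitoneally once a day for 7 days. The controls were labelled as saline, likewise with 7 daily injections. Each mark had 3 cocaine and 3 saline libraries. No genotype, age or sex is given in the labels, which also do not say whether the libraries came from separate animals. The p-values rest on spread between libraries alone, and that spread may be technical. For the 85 H3K27ac regions limma took this spread from the trend over all listed regions, and not from the region itself. Cells of all types were profiled together, so fewer cells of a type and less of a mark per cell cannot be told apart. The markers of the labelled tissue could not be placed on mm9 here and were not checked.

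Glutamate is the main excitatory transmitter of the brain, and it reaches the medium spiny neurons of the accumbens from cortex, amygdala, hippocampus and thalamus. Gria1 and Gria2 encode the AMPA receptor subunits GluA1 and GluA2, which carry fast excitatory current, and GluA2 is the subunit that makes the channel nearly impermeable to calcium. Grin1 encodes GluN1, the obligatory NMDA receptor subunit, and Grin2b encodes GluN2B, a subunit that dominates early in development. Homer1 encodes a postsynaptic scaffold that binds group I metabotropic glutamate receptors, and its short form Homer1a is an immediate early product. In the accumbens these genes are widely studied in plasticity after repeated cocaine.

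Because 5hmC in adult brain sits mostly at CpG sites, the 250 bases upstream of the listed starts of these genes are shown with every CpG in capitals. They are RefSeq sequences from build GRCm38.p6, written 5′ to 3′ on the strand of the gene (minus for Gria2 and Grin1, plus for Homer1), and 2 starts are listed for Homer1. No sequence is shown for Gria1 and Grin2b.
Gria2: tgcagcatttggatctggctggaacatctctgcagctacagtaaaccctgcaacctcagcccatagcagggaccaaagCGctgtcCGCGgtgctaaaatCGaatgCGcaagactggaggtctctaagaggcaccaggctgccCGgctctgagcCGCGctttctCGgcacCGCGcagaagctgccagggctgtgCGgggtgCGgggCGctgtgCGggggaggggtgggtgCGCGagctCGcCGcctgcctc
Grin1: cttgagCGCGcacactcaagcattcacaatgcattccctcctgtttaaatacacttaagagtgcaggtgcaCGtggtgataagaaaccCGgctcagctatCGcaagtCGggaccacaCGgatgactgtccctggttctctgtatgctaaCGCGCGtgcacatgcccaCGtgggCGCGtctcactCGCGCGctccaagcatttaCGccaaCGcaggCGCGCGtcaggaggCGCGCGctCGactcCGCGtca
Homer1 start 1: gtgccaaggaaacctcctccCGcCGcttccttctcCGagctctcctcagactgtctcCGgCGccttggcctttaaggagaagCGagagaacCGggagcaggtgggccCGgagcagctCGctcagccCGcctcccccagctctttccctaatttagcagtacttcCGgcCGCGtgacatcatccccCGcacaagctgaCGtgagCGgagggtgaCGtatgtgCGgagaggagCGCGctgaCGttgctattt
Homer1 start 2: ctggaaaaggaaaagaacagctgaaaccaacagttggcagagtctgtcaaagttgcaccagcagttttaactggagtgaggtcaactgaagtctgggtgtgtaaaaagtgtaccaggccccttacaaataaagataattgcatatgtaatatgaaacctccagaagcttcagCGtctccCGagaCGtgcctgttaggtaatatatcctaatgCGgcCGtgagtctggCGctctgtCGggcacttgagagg
The motif CG, which reads the same on both strands, occurred 19 times upstream of Gria2, 27 times upstream of Grin1, 21 times upstream of Homer1 start 1 and 7 times upstream of Homer1 start 2. Of 32851 such promoter sequences, 19.7%, 8.56%, 16.3% and 46.3%, respectively, held at least as many, and the median was 6. The measured regions below are in mm9 and were not placed relative to these sequences, to exons or to introns.

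The question put to the loci was whether either mark differed after repeated cocaine. At the H3K27ac level the differences were small, with log2 fold changes of cocaine over saline from -0.16 to 0.21. Of the 85 regions, 10 passed the test (11.8%, against a background of 13.0% of all listed regions): 7 rose (8.24%, background 3.42%) and 3 fell (3.53%, background 9.62%). All 3 that passed at Grin2b and the 1 at Homer1 rose, Grin1 had 2 in each direction, Gria1 had 1 in each direction, and none of the 2 Gria2 regions passed. These counts per locus are small, and a difference between loci was not tested. The test was limma on log2(normalised count + 1) with a threshold of adjusted p 0.05 over all 49712 regions. After cyclic loess scaling the 5 loci had 9 that rose and 2 that fell, against 2735 and 4714 over all regions, where the deposited scaling gave 1699 and 4780.

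**Figure D1:**
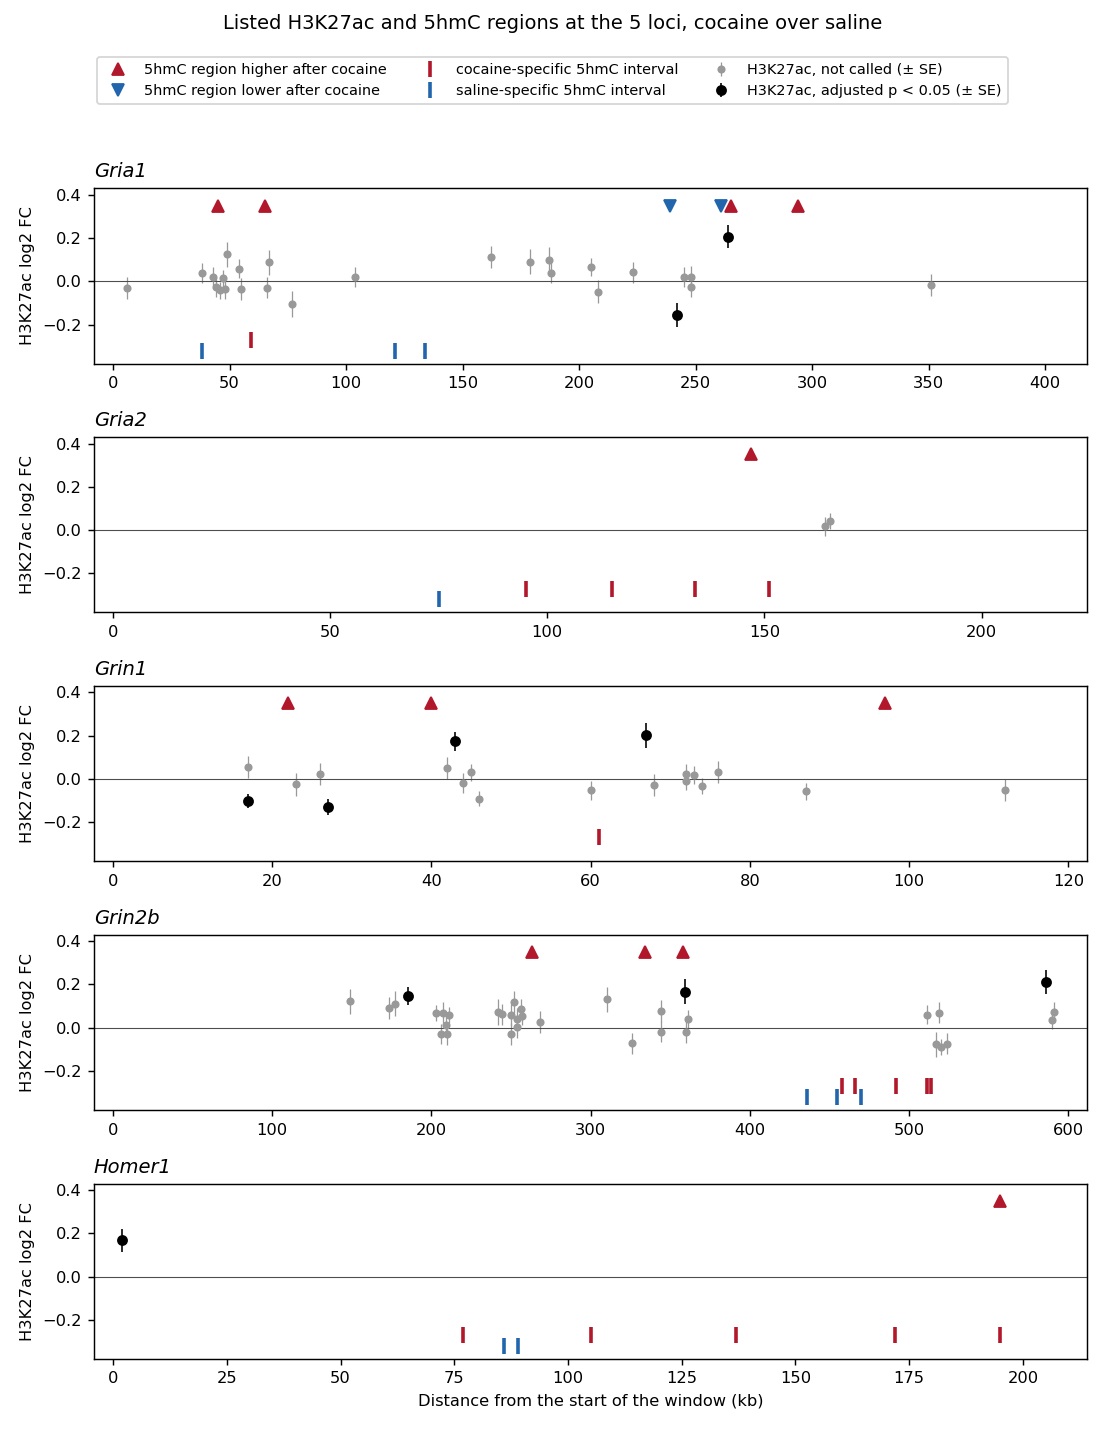
Each panel is 1 locus. The horizontal axis is the distance in kb from the start of its window; points are the log2 fold changes of H3K27ac regions, cocaine over saline, with their limma standard errors (3 libraries per group), black where the adjusted p was under 0.05. Triangles at the top mark the 14 listed 5hmC regions by direction, and ticks at the bottom mark the 16 cocaine-specific and 9 saline-specific intervals, at fixed heights that carry no value. The 3 black points of Grin2b lie above 0, whereas those of Gria1 and Grin1 lie on both sides.

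Regardless of the test, 54 of the 85 H3K27ac regions (63.5%) had a log2 fold change above 0, against 47.4% of all listed regions. Their median log2 fold change was 0.028, beside -0.018 over all regions. In 27 of the 85 (31.8%) cocaine and saline libraries did not overlap, and the background for this was 29.1%. The authors' deposited table gave an adjusted p under 0.05 to 49 of the 85 (57.6%), against 65.9% of its regions. That value followed the length of a region. All 35 regions that were a single window of 1000 bp had it, as did all 17538 such regions of the whole list. In all 35 the region p equalled the p of the window for which the region had been listed. Of the 50 longer regions 14 had it, against 15201 of 32174 over all listed regions. Of the 10 regions that passed limma, 4 also had it and 6 did not. Over all listed regions 6479 passed limma, of which 4487 had it and 1992 did not. The regions had been listed by the caller in these same libraries, so the counts are not independent of the listing. For none of the 85 did limma keep the region's own variance. With each region's own variance 0 of the 85 passed (adjusted p 0.281 to 0.310 for the 10), although 16 had an unadjusted p under 0.05. In limma with moderation 17 had an unadjusted p under 0.05 (20.0%), against 27.3% of all listed regions.

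The loci differed in how much of them was listed. Grin1 had 20 H3K27ac regions in 120 kb, or 16.7 per 100 kb, covering 22.7% of its window. Gria1 had 27 in 410 kb (6.59 per 100 kb) and Grin2b 35 in 600 kb (5.83 per 100 kb), covering 7.12% and 7.67%. Gria2 had 2 (0.909 per 100 kb) and Homer1 1 (0.476 per 100 kb). The table lists regions that passed the caller and is not a scan, so a stretch without a region is not a stretch without H3K27ac. In the RefSeq order of protein-coding genes (GRCm38.p6), Grin1 lies between Lrrc26 and Man1b1, Gria1 between Nmur2 and Fam114a2, Gria2 between Gask1b and Glrb, Grin2b between Emp1 and Eif4a3l1, and Homer1 between Tent2 and Jmy. Regions are named for their window, and whether they lie inside the named gene was not determined. Which gene a region acts on was not measured.

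At Gria1, 1 H3K27ac region rose and 1 fell. A listed 5hmC region lay inside the one that rose, and another lay 3280 bp from the one that fell. The region at chr11:57044401-57045700 held 312, 341 and 329 normalised counts in cocaine libraries C11, C7 and C9 and 273, 284 and 292 in saline libraries S10, S12 and S8. Every cocaine value was above every saline value. It rose by 0.21 ± 0.0543 on the log2 scale (SE, limma adjusted p = 0.00301). The region at chr11:57022101-57023300 held 279, 267 and 276 in cocaine and 329, 288 and 301 in saline, again without overlap. It fell by 0.16 ± 0.0552 (SE, limma adjusted p = 0.0382). The call for the lower region was lost on leaving out any 1 of C11, C7, C9, S10 or S8 (limma adjusted p 0.0774, 0.180, 0.0714, 0.290 and 0.0649), and that for the higher one on leaving out C7 (0.0652).

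The other 25 Gria1 regions did not pass. The one with the most signal per length, chr11:56825801-56826800 with 883 normalised counts per kb, held 885, 866 and 857 in cocaine and 921, 822 and 946 in saline. Saline S12 was the lowest and saline S8 the highest of the 6, so the groups overlapped, and the log2 fold change was -0.04 ± 0.0403 (SE, limma adjusted p = 0.498). Over the 27 regions, 16 had a log2 fold change above 0 and 11 below, with a median of 0.021.

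5hmC at Gria1 was listed in 6 regions, 4 higher and 2 lower after cocaine, and these 2 were the only lower ones among the 14 of the 5 loci. At chr11:57018621-57018820 the 3 cocaine libraries held 1.92, 1.23 and 0.00 normalised counts and the 3 saline libraries 7.17, 9.26 and 5.92. At chr11:57040681-57040880 they held 3.84, 0.00 and 0.00 against 8.96, 10.3 and 4.93, and the cocaine mean rests on 1 library. The authors' deposited log2 fold changes were -2.82 and -2.65, with adjusted p of 0.137 and 0.140. The first of these lay 3280 bp from the H3K27ac region that fell, and the second lay 3520 bp from the one that rose.

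A further region, chr11:57044621-57044820, lay 3740 bp beyond the second and inside the H3K27ac region that rose. It held 10.6, 6.17 and 11.7 in cocaine and 1.79, 2.06 and 2.96 in saline, with a log2 fold change of 2.06 in the authors' deposited table, so both marks were higher there. Neighbouring 5hmC regions thus had opposite directions. The other 3 were higher after cocaine. At chr11:56824601-56824820, which shares 200 bp with an H3K27ac region that did not pass (chr11:56823801-56824800, log2 fold change -0.03), the values were 6.73, 4.94 and 6.29 against 2.69, 0.00 and 0.99. At chr11:56845141-56845340 they were 4.80, 7.41 and 7.19 against 0.90, 2.06 and 0.00. This region lay 460 bp from an H3K27ac region that did not pass (chr11:56845801-56846900, log2 fold change -0.03). At chr11:57073521-57073760 they were 11.5, 6.17 and 10.8 against 4.48, 1.03 and 1.97. At that last site both group means were below background, with deposited ratios of 0.96 (cocaine) and 0.24 (saline).

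Gria2 had the fewest H3K27ac regions of the receptor genes, and neither passed. The stronger, chr3:80605101-80607800 (680 normalised counts per kb), held 1882, 1848 and 1853 in cocaine and 1805, 1743 and 1878 in saline. Saline S8 lay within the range of the cocaine libraries, and the log2 fold change was 0.04 ± 0.0352 (SE, limma adjusted p = 0.444). After loess scaling this region passed, with a log2 fold change of 0.083. The other, chr3:80603701-80604700, held 557, 574 and 571 in cocaine and 554, 544 and 585 in saline, a log2 fold change of 0.02 ± 0.0444 (SE, limma adjusted p = 0.724). Its sign turned without S12 (-0.004).

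The single 5hmC region of Gria2, chr3:80586821-80587100, had the highest deposited log2 fold change of the 14, 2.99 in the authors' deposited table. Its values were 4.80, 8.64 and 8.99 in cocaine and 1.79, 1.03 and 0.00 in saline, which is 22 reads against 3. The cocaine mean was close to background (deposited ratio 1.05). It lay 16600 bp from the nearest H3K27ac region.

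At Grin1, as at Gria1, H3K27ac changed in both directions at separate places. The 2 regions that fell started 17 and 27 kb into the window and were broad, and the 2 that rose were narrow and started at 43 and 67 kb. Each of them shares bases with a listed region that did not pass and had the opposite sign. In the same order, the log2 fold changes of these overlapping regions were 0.055, 0.023, -0.020 and -0.030. At chr2:25117401-25123200, with 5800 bp the longest region of the 5 loci, cocaine libraries held 2705, 2744 and 2809 normalised counts and saline libraries 2943, 2899 and 3027. It fell by 0.10 ± 0.0323 (SE, limma adjusted p = 0.0181), and the groups did not overlap. The region at chr2:25126801-25129300 held 1402, 1439.6 and 1445 in cocaine and 1572, 1494 and 1634 in saline. It fell by 0.13 ± 0.0366 (SE, limma adjusted p = 0.00601), also without overlap.

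Of the regions that rose, chr2:25143101-25144200 held 664, 660.5 and 608 in cocaine and 554, 561 and 597 in saline. It rose by 0.17 ± 0.0437 (SE, limma adjusted p = 0.00170), the lowest adjusted p of the 85, and it passed without each of the 6 libraries in turn. The region at chr2:25167301-25168300 held 263, 266 and 260.1 in cocaine and 212, 240.0 and 235 in saline and rose by 0.20 ± 0.0590 (SE, limma adjusted p = 0.00999). Neither pair of groups overlapped. The longest region lost its call under loess scaling (limma adjusted p = 0.0827), without a variance trend (limma adjusted p = 0.12) and without C11, C7 or S10 (0.165, 0.119 and 0.0689). The second lower region lost it without C11 (0.0841), and the last one without C7 or S10 (0.0646 and 0.132).

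The region with the most H3K27ac per length at Grin1, chr2:25173701-25175400 (809 normalised counts per kb), held 1405, 1347 and 1325 in cocaine and 1369, 1345 and 1457 in saline. The groups overlapped, the log2 fold change was -0.03 ± 0.0372 (SE, limma adjusted p = 0.562), and its sign turned under loess scaling (0.005) and without S8 (0.002). The 4 regions that changed at Grin1 thus did not include the one with the strongest signal. Over its 20 regions 9 had a log2 fold change above 0 and 11 below.

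All 3 listed 5hmC regions of Grin1 were higher after cocaine. At chr2:25121801-25122000, inside the longest H3K27ac region, the values were 7.69, 4.94 and 7.19 in cocaine and 2.69, 1.03 and 0.00 in saline. Here the marks had opposite directions, with a 5hmC log2 fold change of 2.41 in the authors' deposited table over an H3K27ac region that fell. Both 5hmC means were below background (deposited ratios 0.94 and 0.17). At chr2:25139921-25140180 the values were 6.73, 7.41 and 8.99 against 1.79, 0.00 and 2.96, and every cocaine library was above every saline one. At chr2:25197061-25197260 they were 4.80, 14.8 and 5.39 against 1.79, 1.03 and 1.97, and 1 cocaine library stood well above the other 2. Without it the log2 ratio of the means plus 1 was 1.23 instead of 1.85.

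Grin2b had the most H3K27ac regions, and those that passed all rose. At chr6:136185901-136187100, near the end of the window, cocaine libraries held 320.4, 334 and 316 normalised counts and saline libraries 280.3, 304 and 255. It rose by 0.21 ± 0.0545 (SE, limma adjusted p = 0.00241), without overlap. At chr6:135785401-135787300 the cocaine libraries were almost identical at 733, 732 and 730.5, above the saline values of 673, 628 and 684. It rose by 0.15 ± 0.0424 (SE, limma adjusted p = 0.00909). The last of them, chr6:135958901-135959900, held 296, 265 and 284 in cocaine and 238, 246 and 269 in saline. It rose by 0.17 ± 0.0570 (SE, limma adjusted p = 0.0340), but saline S8 was above cocaine C7, so its groups overlapped.

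These calls were lost in some fits that left out 1 library and so had fewer samples. The first was lost without S8 (limma adjusted p = 0.108). The second was lost without C11 or S12 (limma adjusted p 0.0509 and 0.0988). Its log2 fold change without C11 was 0.145, beside 0.146 with all libraries. The last was lost without C11, C9, S10 or S12 (limma adjusted p 0.242, 0.0933, 0.178 and 0.0908) and under loess scaling (0.0924). Among the other 32 regions none passed, and over all 35 the log2 fold change was above 0 in 26 and below 0 in 9, with a median of 0.060. The region with the most signal per length, chr6:136189501-136190600 (523 normalised counts per kb), held 582, 612 and 554 in cocaine and 560, 604 and 541 in saline, a log2 fold change of 0.04 ± 0.0442 (SE, limma adjusted p = 0.577).

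5hmC at Grin2b was listed in 3 regions, each higher after cocaine. At chr6:135934221-135934500 the values were 10.6, 13.6 and 15.3 in cocaine and 3.59, 3.09 and 7.90 in saline. At chr6:135958061-135958260 they were 12.5, 7.41 and 9.89 against 2.69, 3.09 and 3.95, and this region lay 640 bp from the H3K27ac region that rose with overlapping groups. At chr6:135863161-135863380 they were 23.1, 6.17 and 4.49 against 1.79, 1.03 and 2.96. That region had the lowest p of the 14 in the authors' deposited table (8.78e-05), yet 24 of its 34 cocaine reads came from the first listed library, and without that library the log2 ratio of the means plus 1 was 1.11 instead of 2.06.

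**Figure D2:**
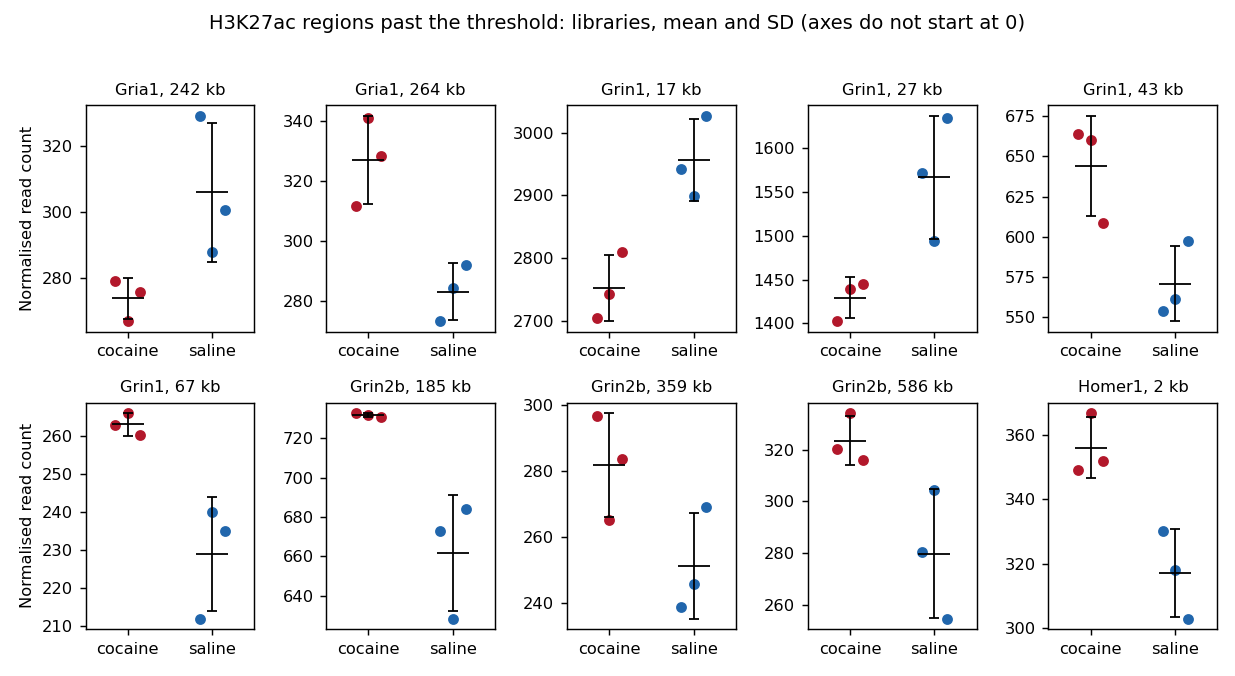
Normalised H3K27ac read counts (vertical axes, which do not start at 0) of the 10 regions with a limma adjusted p under 0.05, named by locus and distance from the start of the window. Points are the 3 cocaine (red) and 3 saline (blue) libraries and black bars the mean and SD; the groups are apart in 9 panels and overlap in the panel of Grin2b at 359 kb.

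Homer1 had 1 listed H3K27ac region, and it rose. The region, chr13:94022101-94023500, held 349, 367 and 352 normalised counts in cocaine and 330.2, 318 and 303 in saline, without overlap. The rise was 0.17 ± 0.0520 on the log2 scale (SE, limma adjusted p = 0.0168), and it was lost without C7 (0.131) or S8 (0.126). It starts about 2 kb inside the window, so a window shortened by 40 kb on each side does not hold it. Its signal of 240 normalised counts per kb was below the median of 350 over the 85 regions and 373 over all listed regions.

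The 5hmC region of Homer1, chr13:94214801-94215000, had the highest cocaine mean of the 14. Its values were 14.4, 16.0 and 18.9 in cocaine and 8.07, 9.26 and 2.96 in saline, or 49 reads against 21. Its log2 fold change of 1.28 was the lowest of the 12 higher regions in the authors' deposited table. The deposited ratios to background were 5.81 and 2.33, and the same 200 bp were listed as a cocaine-specific interval.

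**Figure D3:**
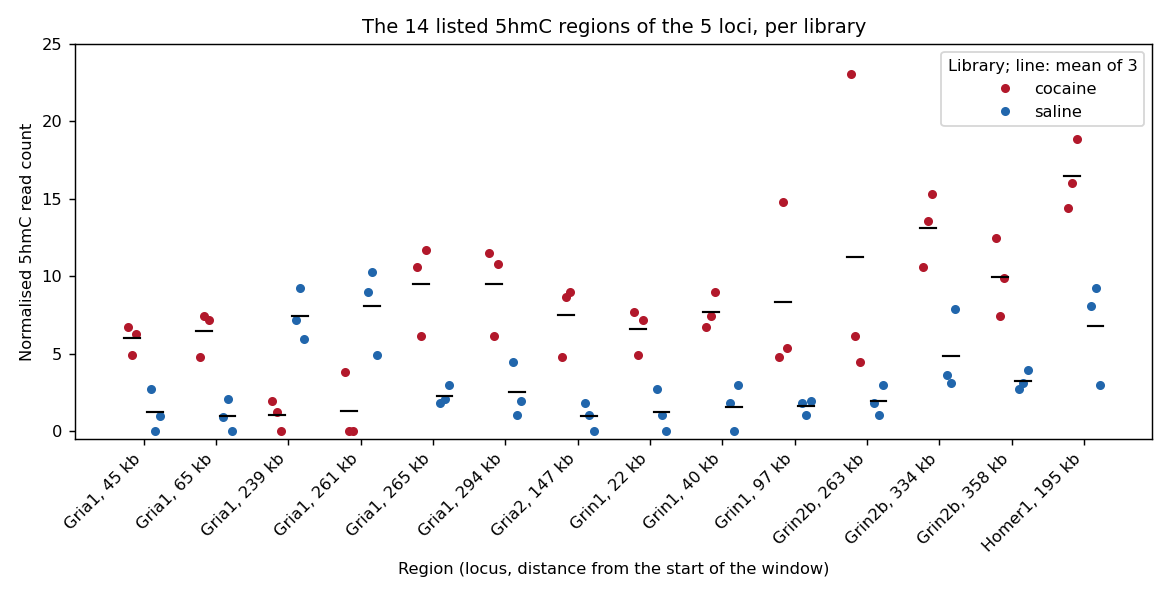
Normalised 5hmC read counts (vertical axis) of the 14 listed regions in each of the 3 cocaine (red) and 3 saline (blue) libraries, with the mean of each group as a line; regions are named by locus and distance from the start of the window. In 12 regions the cocaine libraries lie above the saline libraries and in the 2 Gria1 regions at 239 and 261 kb below them, and 1 library stands high at Grin2b 263 kb and at Grin1 97 kb.

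Over all 5 loci, 12 of the 14 5hmC regions (85.7%) were higher after cocaine, against 58.5% of the whole list. The list had been selected for a group difference, so no test was made on it. The groups did not overlap in any of the 14, as in 99.9% of all listed regions. None of the 14 had an adjusted p under 0.05 in the authors' deposited table, where 4 regions did (0.0340%), and theirs ran from 0.137 to 0.141, with p from 8.78e-05 to 0.000951. Counts were low. In the 12 higher regions a cocaine library held 4 to 24 reads and a saline library 0 to 9, and in 5 of them a saline library held none. At this depth the size of a fold change is poorly fixed, and 9 of the 12 had a saline mean below background by the deposited ratio. The background was 0 at 1 of the 12 and at the 2 lower regions.

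The intervals named as cocaine-specific or saline-specific carry no values, so only their places are known. Their lengths ran from 200 to 1400 bp. Homer1 had 5 cocaine-specific and 2 saline-specific intervals, Grin2b 5 and 3, Gria2 4 and 1, Grin1 1 and 0, and Gria1 1 and 3. Gria1 was thus the locus with more saline-specific than cocaine-specific intervals, and also the one with lower 5hmC regions. The 2 were at different places, as the intervals started 38, 121 and 134 kb into the window and the lower 5hmC regions at 239 and 261 kb. At Homer1 the cocaine-specific intervals were chr13:94096601-94096800, chr13:94124801-94125400, chr13:94157401-94158800, chr13:94192401-94192600 and the one shared with the 5hmC region, and the saline-specific ones, chr13:94105801-94106200 and chr13:94108801-94109000, lay between the first 2 of these. At Gria2 they were chr3:80535201-80535400, chr3:80555401-80555600, chr3:80573801-80574200 and chr3:80590601-80590800, of which the last lay 3500 bp from the 5hmC region, with a saline-specific interval at chr3:80514601-80514800.

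At Grin2b the 8 intervals lay in the later part of the window, beyond the 3 listed 5hmC regions. Saline-specific intervals at chr6:136036201-136036400, chr6:136055401-136055600 and chr6:136070401-136070800 stood among cocaine-specific ones at chr6:136057801-136058000 and chr6:136066201-136066400, the closest of the 2 kinds being 2200 bp apart. Further along came cocaine-specific intervals at chr6:136091601-136091800, chr6:136110801-136111600 and chr6:136113601-136113800. The middle one of these shares 700 bp with an H3K27ac region (chr6:136110901-136112800) that held 642, 643 and 651 in cocaine and 608, 629 and 619 in saline. Its groups did not overlap, but its log2 fold change of 0.06 ± 0.0433 did not pass (SE, limma adjusted p = 0.36). The Grin1 interval, chr2:25161201-25161600, lay 200 bp from an H3K27ac region. At Gria1 the cocaine-specific interval was chr11:56839201-56839400, and the saline-specific ones were chr11:56817801-56818000, chr11:56901001-56901800 and chr11:56914401-56914800. The first of these 3 shares 100 bp with an H3K27ac region that did not pass (chr11:56817901-56819400, log2 fold change 0.04).

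Overlap between the lists was therefore sparse. Of the 14 5hmC regions 3 (21.4%) shared at least 1 bp with a listed H3K27ac region, against 8.95% of all listed 5hmC regions. Of the 16 cocaine-specific intervals 1 (6.25%) shared bases with an H3K27ac region and 1 (6.25%) with a 5hmC region, against 1.83% and 1.72% of all such intervals. Of the 9 saline-specific intervals 1 (11.1%) and 0 did, against 1.10% and 1.24%. These are counts of 0 to 3, given without a test.

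When all listed H3K27ac regions of a locus were summed per library, the differences were a few percent except at Homer1. The Grin2b sum was 18037, 17849 and 18227 in cocaine and 17652, 17262 and 17738 in saline, 2.77% higher and without overlap. The Grin1 sum was 16234, 16346 and 16449.5 against 16599, 16519.6 and 17149.9, 2.46% lower and also without overlap. This separation at Grin1 did not hold in a window shortened by 40 kb on each side, where the log2 ratio was -0.004 instead of -0.036 (p = 1, exact permutation test), and without S8 the log2 ratio was -0.019. The sum at Gria1 was 11735, 11855 and 11891 against 11767, 11498 and 11821, 1.12% higher with overlap. Gria2, with 2439, 2422 and 2424 against 2359, 2287 and 2463, was 2.49% higher with overlap. Homer1, whose sum is its single region, was 12.27% higher.

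Grin2b, Grin1 and Homer1 each had p = 0.1 in a two-sided exact permutation test, the smallest that 3 against 3 libraries allow, and 0.167 after Benjamini-Hochberg adjustment over the 5 loci. Gria1 had p = 0.3 and Gria2 p = 0.4 in the same exact test (adjusted 0.375 and 0.4). No locus could therefore pass 0.05. As shares of each library's total over all listed regions, Gria1 and Gria2 also separated fully (p = 0.1, exact permutation test) and Grin1 did not (p = 0.2, exact). Overlapping regions count their shared bases more than once, and 40 of the 85 share bases with another.

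**Figure D4:**
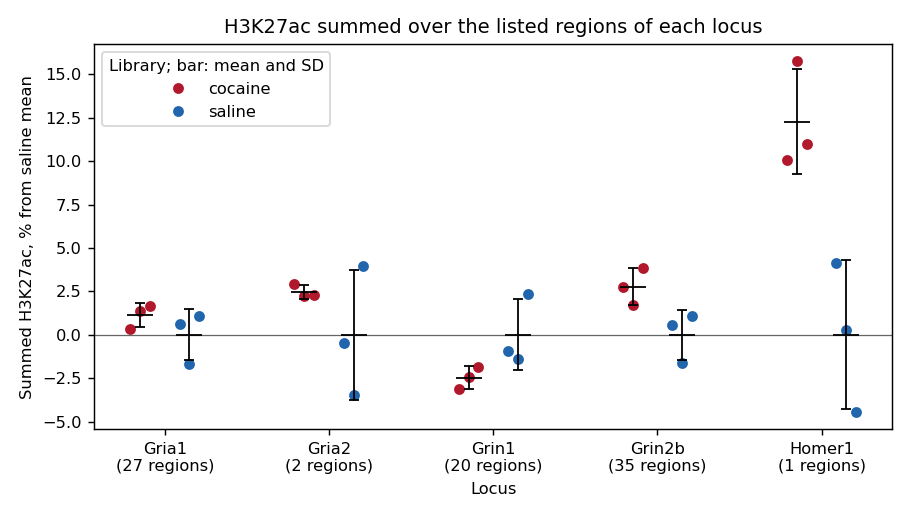
H3K27ac summed over the listed regions of each locus, as percent difference from the mean of the saline libraries (vertical axis), for the 3 cocaine (red) and 3 saline (blue) libraries, with mean and SD. The cocaine points lie above all saline points at Grin2b and Homer1, below them at Grin1, and among them at Gria1 and Gria2.

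Across the whole table the listed regions of the 6 H3K27ac libraries summed to between 31666082 and 32720046 normalised counts, with medians of 510 to 519 per region. These values had already been scaled by the authors, so they do not show how deeply each library was sequenced. A 5hmC library held a median of 5.00 to 7.00 reads in a listed region.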

How the data were processed

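The submitters' processing notes name Bowtie 0.12.9 and build mm9. Per the file headers, diffReps 1.54 scanned H3K27ac in 1000 bp windows at 100 bp steps and kept windows with p up to 0.0001. For the 5hmC table, the sources used here name no caller. The deposited signal is a normalised read count per library and its group mean. The authors also deposited each group's ratio to background, log2 fold changes, p-values and adjusted p-values. They further deposited 2 lists of intervals, for which they name no method. The H3K27ac header names the libraries in order; the 5hmC table does not, so its libraries are called by place. Dividing 5hmC values by each library's smallest step gave whole reads (100.0% within 0.1 read), which are the reads printed.

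H3K27ac, as log2(value + 1), was tested with limma 3.58.1 (R 4.3.3), using robust moderation with an intensity trend and Benjamini-Hochberg adjustment over 49712 regions, 3 against 3 libraries. The procedure was first run on simulated data whose changes were larger than any at the loci, so that run does not cover changes of the size reported here. Sums used exact permutation over libraries (scipy 1.17.1). Inputs (1 per treatment) and 1 library labelled both cerebellum and nucleus accumbens were left out, and 0 per-library columns were unused. Regions count for a locus if they share at least 1 bp with its window. Named were, per locus, the region with most signal per kb, those that passed, all 5hmC regions and intervals, and overlapping pairs. The members and lists were chosen with earlier results of these data known. Other pathway genes and cell type markers, which need an mm9 annotation, were not analysed here. Alternatives were other pseudocounts, scalings, variance models, filters, thresholds and windows, and leaving out each library.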

Additional observations from a re-analysis of the deposited data

How the results depend on the processing

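No named region that passed changed direction under any alternative run, but most of these runs could not have shown such a change. Where the groups did not overlap, leaving out 1 library could not turn a sign. The variance models and the minimum mean left the fold changes as they were. All 10 calls depended on how variance was modelled, and most were also lost in at least 1 of the fits that left out a library. Over the 5 loci the 10 calls (7 higher, 3 lower) stayed 10 with pseudocounts of 0.5 and 10, with a minimum mean of 100 and with plain moderation with trend, and all 10 regions kept their call there. The pseudocounts and the minimum mean could hardly move these calls. Counts at the loci were far above the pseudocounts, and the minimum mean left the 6479 calls over all regions at that number. With each region's own variance there were 0 (0 higher, 0 lower) at the 5 loci and 2 over all regions (1 higher, 1 lower). At an adjusted p under 0.01 there were 6 (1 lower) at the loci and 3259 over all regions (497 higher, 2762 lower), by construction fewer. Higher calls over all regions numbered 2735 after cyclic loess scaling and 2715 without a variance trend, against 1699; the cause was not tested. Leaving out each library gave 5 to 10 calls at the loci (4 to 6 higher, 0 to 4 lower) and 3055 to 6918 over all regions (624 to 1446 higher, 2431 to 5472 lower); each fit then had fewer samples. The fewest at the loci came without C11 (5 higher, 0 lower, although 4 lower ones had an unadjusted limma p under 0.05) and without C7 (4 higher, 1 lower), and S10 left 6.

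Signs turned in 3 named regions that had not passed: chr11:56823801-56824800 at Gria1 (0.018 without S10, -0.062 to 0.018 over the libraries left out), chr3:80603701-80604700 at Gria2 (-0.004 without S12, up to 0.049) and chr2:25173701-25175400 at Grin1 (0.005 after loess scaling, and -0.057 to 0.002 over the libraries left out, the last without S8). Log2 ratios of the locus sums ran from 0.004 to 0.024 for Gria1, 0.010 to 0.064 for Gria2, -0.046 to -0.019 for Grin1, 0.028 to 0.047 for Grin2b and 0.135 to 0.197 for Homer1 on leaving out each library. The shortened window gave -0.004 for Grin1 and no value for Homer1. Keeping the longest of overlapping regions, chosen after seeing the data, turned no sum.

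Of the 12 higher and 2 lower 5hmC regions, 0 and 0 had a deposited adjusted p under 0.1, and 3 and 0 reached 10 normalised counts in a group mean. Windows widened by 100 kb held 14 and 5. Within 1000 bp of an H3K27ac region lay 5 of the 14 5hmC regions and 3 of the 16 cocaine-specific intervals. Without 1 cocaine library the 5hmC region chr11:57040681-57040880 moved from -1.99 to -3.18 on the scale of log2 ratio of means plus 1. Count tests on whole reads were not run. No paired analysis was possible because the compared groups share no replicate numbers in the labels.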
